A study of Mus musculus with 9 samples.

Results

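Smooth muscle actin and 9 further genes of contraction were followed through RNA sequencing of 9 mouse cell cultures. The 10 genes are Acta2, Actg2, Tagln, Cnn1, Cnn2, Myl9, Tpm1, Tpm2, Myh11 and Srf, found by symbol among the 47729 rows of the gene count table, with 1 row each. They were selected on their measured levels in NSC and tumour cultures, which were known beforehand, so those levels are given as a description and carry no test. The 3 groups have 3 cultures each. NSC (cultures 1, 3 and 5) are primary wild-type cells, neural stem cells taken from the subventricular zone. LTR are tumour cells derived from such cells with the genotype lgT/Ras, and NF1 are tumour cells with shp53, Nf1-/- and CDK4. All were grown under the same stem cell culture conditions for at most 10 passages. Neither the age, sex and strain of the mice nor the number of separate transformations behind the cultures of a tumour group is given in the sources used here, so differences between cultures measure only the spread of these samples.

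Contraction in smooth muscle rests on thin filaments of actin, wrapped by tropomyosin and bound by calponin and transgelin, which slide against filaments of myosin II. The myosin is switched on when its regulatory light chain is phosphorylated. Most genes of this apparatus are transcribed under serum response factor, the product of Srf, which binds a short element named the CArG box. Its partners decide which targets are used. Myocardin and the myocardin-related factors (MRTFs) drive contractile and cytoskeletal genes, and the MRTFs are released by actin polymerisation. The ternary complex factors (TCFs) Elk1, Elk3 and Elk4 drive immediate early genes below MAP kinase. In the brain Acta2, Tagln, Cnn1 and Myh11 are best known from the mural cells of arteries, that is, from vascular smooth muscle and some pericytes.

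Because the CArG box is what these genes share in the textbook account, the 250 bases before the RefSeq transcription start were read for the members the results turn on. RefSeq promoter entries (GRCm38.p6) were matched by symbol for 7 of the 10 members; Actg2, Tagln and Myh11 had none. Capitals mark a CArG box or a near match with 1 C or G in its A/T core, searched in 300 bases from 250 before to 50 after the start; the element is its own reverse complement, so both strands are covered.
Acta2, chr19:34255374-34255623, minus strand: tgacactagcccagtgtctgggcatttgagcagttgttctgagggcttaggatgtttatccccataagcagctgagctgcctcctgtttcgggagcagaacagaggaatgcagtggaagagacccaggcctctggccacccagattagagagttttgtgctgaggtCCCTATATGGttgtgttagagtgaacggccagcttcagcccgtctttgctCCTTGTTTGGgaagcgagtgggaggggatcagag
Myl9, chr2:156775214-156775463, plus strand: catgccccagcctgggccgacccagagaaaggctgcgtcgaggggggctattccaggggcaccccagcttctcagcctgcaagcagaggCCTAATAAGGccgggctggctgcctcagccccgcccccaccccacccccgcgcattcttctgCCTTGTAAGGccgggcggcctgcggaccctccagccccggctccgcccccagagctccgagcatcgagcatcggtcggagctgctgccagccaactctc
Cnn2, chr10:79988350-79988599, plus strand: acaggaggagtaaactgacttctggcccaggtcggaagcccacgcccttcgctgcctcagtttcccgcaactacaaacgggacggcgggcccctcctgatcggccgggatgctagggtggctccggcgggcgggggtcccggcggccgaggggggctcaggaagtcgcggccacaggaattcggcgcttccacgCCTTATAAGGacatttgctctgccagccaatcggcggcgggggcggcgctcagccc
Srf, chr17:46556163-46556412, minus strand: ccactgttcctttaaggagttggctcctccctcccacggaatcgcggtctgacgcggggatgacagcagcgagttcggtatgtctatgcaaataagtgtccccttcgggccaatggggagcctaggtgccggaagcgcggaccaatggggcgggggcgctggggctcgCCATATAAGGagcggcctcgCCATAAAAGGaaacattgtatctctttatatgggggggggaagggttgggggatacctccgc
Cnn1, chr9:22099003-22099252, plus strand: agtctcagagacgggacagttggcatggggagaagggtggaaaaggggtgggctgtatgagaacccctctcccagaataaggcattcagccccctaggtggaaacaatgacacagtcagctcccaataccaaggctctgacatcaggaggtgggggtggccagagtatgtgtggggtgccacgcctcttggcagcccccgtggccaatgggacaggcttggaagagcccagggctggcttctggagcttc
Distances below are counted from the RefSeq start. For each gene printed, the outermost start in the GENCODE M21 annotation lay within the stretch (Acta2 at 34255590), so they hold for the RefSeq start only. The Acta2 stretch held 2 near matches, beginning 84 and 34 bases before that start, and no full CArG box. Myl9 held a full box at 161 and a near match at 99 bases, Cnn2 a full box at 56, and Srf full boxes at 82 and 62 bases before its own start. Cnn1, Tpm1 and Tpm2 held neither in this window, which says only that these letters are not within it. A full box was found in 3 of the 7 members and either form in 4. Of all 32851 promoter windows of the same length, 1.63% held a full box, 8.5% a near match and 9.98% either. The match is one of letters, and binding was not measured here.

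Total counts ran from 35543564 to 57231024 (NSC 3) in NSC and from 28600479 (LTR 2) to 34230788 in the tumour groups, so each NSC library was deeper than each tumour library, and 3 counts, the floor used here, are worth between 0.0541 and 0.114 CPM, the read count scaled to the library's size (TMM scaling). NSC libraries were read on lane 1 and both tumour groups on lane 7, per the column headers, so lane and the step from NSC to tumour cannot be told apart. Trp53, the target named by shp53, was at 151 to 221 CPM in the libraries labelled NF1 and at 101 to 114 CPM in NSC, so it was not lower under that label; Nf1 was at 40.1 to 97.1 against 82.4 to 114 CPM. Cdk4 was at 795, 393 and 1120 CPM in NF1 1 to 3 and at 325 to 455 CPM in NSC, so NF1 2 lay within the NSC range for Cdk4 and Nf1. Because of Trp53 that group is called by its label below. NSC 3 and NF1 2 stood apart within their groups: across 15696 genes the log2 CPM of NSC 3 correlated with NSC 1 and NSC 5 at r = 0.958 and 0.953, against 0.991 between those, and NF1 2 with NF1 1 and NF1 3 at 0.936 and 0.911, against 0.981. With the NSC libraries NF1 2 correlated at 0.886 to 0.892, NF1 1 at 0.832 to 0.84 and NF1 3 at 0.806 to 0.815. NF1 2 was thus the nearest of its group to NSC. The summed level of 11 neural stem markers was 3443 CPM in NF1 2, against 1210 and 832.3 CPM in NF1 1 and NF1 3. Why NF1 2 stood apart was not tested. Neural stem markers were abundant in NSC, with Nes at 1480 and Sox2 at 338 CPM on average, but also in the tumour groups (Nes at 626 and 1177, Sox2 at 233 and 291 CPM), so these 2 genes do not set the groups apart. In cultures read in bulk, fewer cells of a kind and less RNA per cell cannot be told apart.

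The thin filament genes came first in NSC. Acta2 encodes the smooth muscle alpha actin (chromosome 19, 34241090 to 34255590, minus strand, GRCm38). It was at 795.7, 164.9 and 917.1 CPM in NSC 1, 3 and 5, at 0.207, 2.44 and 0.239 CPM in LTR 1 to 3, and at 0, 0.160 and 0 CPM in NF1 1 to 3. Every NSC library stood above every tumour library, and NSC 3 was the lowest of its group while still 67.6 times the highest tumour library. In counts, 73461 reads in NSC stood against 79 in LTR and 5 in the libraries labelled NF1, all 5 of them in NF1 2. The mean was 626 ± 404 CPM (SD, n = 3) in NSC and 0.962 ± 1.28 CPM (SD, n = 3) in LTR, a ratio of 651. The fitted log2 fold change was -9.40 ± 1.26 (SE) in LTR, and it was -9.72 without NSC 3 and -11.31 without LTR 2, the library that held most of the LTR counts. In the libraries labelled NF1 the mean was 0.0533 ± 0.0923 CPM (SD, n = 3) and the fitted log2 fold change -13.44 ± 1.55 (SE), a value that rests on NF1 2 because the other libraries are listed at 0. Without NF1 2 the level was at least 12000-fold lower than in NSC, against a floor of 3 counts over the remaining 2 libraries.

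Actg2, the gamma actin of visceral smooth muscle (chromosome 6, 83512905 to 83536265, minus strand), was barely counted anywhere. It had 4 reads in NSC 5, 1 read in LTR 1 and 0 in the other libraries, too few for a fold. The smooth muscle actin RNA of these cultures was therefore read from Acta2. Of its transcript, 0.352% of the 50-base windows also occur in other genes, among them Actg1. That cytoplasmic actin was at 794.4 to 1342 CPM across the libraries, and how shared reads were counted is not known. Their part in the Acta2 counts, at 0 to 2.44 CPM in the tumour libraries, was not tested.

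Tagln encodes transgelin, an actin-bundling protein of the calponin family (chromosome 9, 45929619 to 45936058, minus strand). It was at 469.3, 95.5 and 593.6 CPM in NSC 1, 3 and 5, at 1.01, 3.97 and 1.19 CPM in LTR, and at 0.753, 2.5 and 0.409 CPM in the libraries labelled NF1. The groups did not overlap, and NSC 3 exceeded the highest tumour library 24.1 times. The NSC mean of 386 ± 259 CPM (SD, n = 3) was 188 times the LTR mean of 2.06 ± 1.66 CPM and 317 times the mean of 1.22 ± 1.12 CPM (SD, n = 3 each) under the NF1 label. Log2 fold changes were -7.57 ± 1.02 and -8.30 ± 1.06 (SE); without LTR 2 the first was -8.33, and without NF1 2 the second was -9.34. Exons of Tagln share 67.9% of their bases with Pcsk7 and Gm48529 on the other strand, and the library kit keeps no strand. Pcsk7 itself lay between 16.9 and 28.4 CPM in all 9 libraries, with no such drop.

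The calponins, which bind actin and restrain myosin, were split. Cnn1, the smooth muscle calponin (chromosome 9, 22099216 to 22109630, plus strand), was at 25.6, 2.87 and 40.3 CPM in NSC 1, 3 and 5, at 0, 0 and 0.209 CPM in LTR, and at 0, 1.34 and 0.102 CPM under the NF1 label. All NSC libraries were above all tumour libraries, but NSC 3 was only 2.13 times NF1 2. Log2 fold changes were -8.22 ± 1.86 (SE) in LTR, where all 7 reads were in LTR 3, and -5.57 ± 1.57 (SE) under the NF1 label, where 42 of 45 reads were in NF1 2. Without NF1 2 the second value was -8.79, and without NSC 5 the values were -7.55 and -4.88. Cnn2, the calponin found widely outside muscle (chromosome 10, 79988584 to 79996062, plus strand), was at 218.5, 39.3 and 305.6 CPM in NSC, at 78.2, 162.1 and 86.2 CPM in LTR and at 72.0, 33.4 and 83.0 CPM under the NF1 label. Here the groups overlapped, because NSC 3 was below every LTR library and below NF1 1 and NF1 3. Log2 fold changes of Cnn2 were -0.79 ± 0.64 and -1.58 ± 0.65 (SE).

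**Figure D1:**
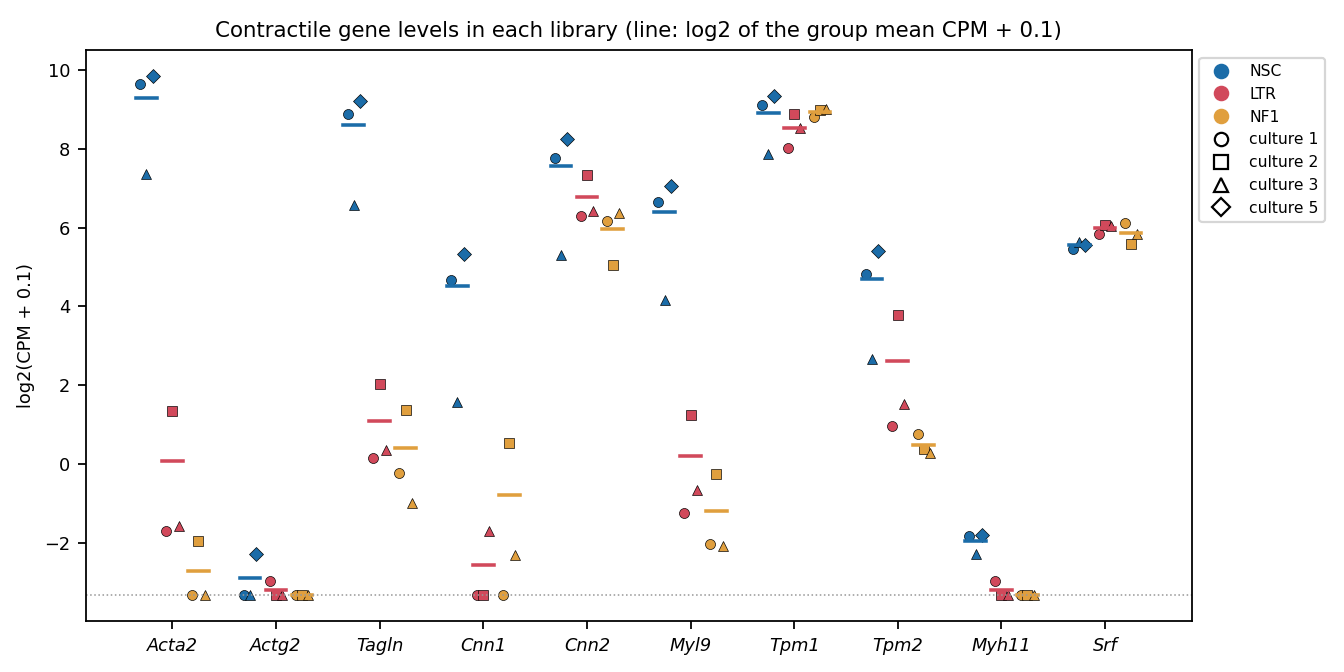
Levels of the 10 contractile genes in each library, as log2(CPM + 0.1); each symbol is 1 library, colours are groups, short lines are group means and the dotted line is 0 counts. Acta2, Tagln, Cnn1, Myl9 and Myh11 lie higher in every NSC culture than in every tumour culture, Tpm1 and Cnn2 overlap, and the NSC 3 triangle is lowest of its group for Acta2 (164.9 CPM).

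The tropomyosins, coiled coils along the actin filament, were also split. Tpm1 (chromosome 9, 67022590 to 67049406, minus strand) was at 547.7, 235.2 and 651.5 CPM in NSC 1, 3 and 5, at 259.0, 471.4 and 365.8 CPM in LTR, and at 447.1, 505.2 and 518.3 CPM under the NF1 label. NSC 3 was the lowest of all 9 libraries, and the groups overlapped. Its log2 fold changes were -0.39 ± 0.36 and 0.04 ± 0.36 (SE), and the sign of the second changed in 4 of 16 alternative settings. Tpm2 (chromosome 4, 43514711 to 43523765, minus strand) was at 28.1, 6.24 and 42.5 CPM in NSC, at 1.87, 13.6 and 2.81 CPM in LTR, and at 1.59, 1.22 and 1.13 CPM under the NF1 label. LTR 2 lay above NSC 3, so NSC and LTR overlapped, while the libraries labelled NF1 lay below all others. Log2 fold changes of Tpm2 were -2.08 ± 0.83 (SE) in LTR, -3.33 without LTR 2, and -4.28 ± 0.91 (SE) under the NF1 label. Both genes make muscle and non-muscle isoforms, which gene counts add together.

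On the myosin side, Myl9 encodes the regulatory light chain of smooth muscle myosin (chromosome 2, 156775420 to 156781658, plus strand). It was at 99.4, 17.8 and 133 CPM in NSC 1, 3 and 5, at 0.326, 2.29 and 0.537 CPM in LTR, and at 0.145, 0.736 and 0.137 CPM under the NF1 label. No library of a tumour group reached NSC 3, which was 7.77 times LTR 2. The NSC mean of 83.4 ± 59.2 CPM (SD, n = 3) was 79.4 times that of LTR and 246 times that under the NF1 label, with log2 fold changes of -6.34 ± 1.06 and -7.93 ± 1.16 (SE). They were -7.46 without LTR 2 and -9.16 without NF1 2. Myh11, the smooth muscle myosin heavy chain and the marker most specific to mature smooth muscle (chromosome 16, 14194535 to 14291372, minus strand), had 7, 6 and 7 reads in NSC, 1 read in LTR 1 and 0 elsewhere. The ratio of NSC to LTR was 14.3, with an exact 95% counting interval from 2.29 to 593, and the libraries labelled NF1 were at least 4.86-fold lower against a floor of 3 counts over the group. Intervals and floors cover counting error only. NSC thus held abundant Acta2 and Tagln RNA with Myh11 at no more than 0.188 CPM.

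Srf, the transcription factor above these genes (chromosome 17, 46548329 to 46556175, minus strand), did not follow them. It was at 44.1, 49.6 and 47.1 CPM in NSC 1, 3 and 5, at 57.4, 67.3 and 65.9 CPM in LTR, and at 68.9, 48.0 and 56.9 CPM under the NF1 label. All LTR libraries were above all NSC libraries, NF1 2 lay inside the NSC range, and NSC 3 was the highest of its group. The means were 46.9 ± 2.77 (SD, n = 3) in NSC, 63.5 ± 5.38 in LTR and 57.9 ± 10.5 CPM (SD, n = 3 each) under the NF1 label, with log2 fold changes of 0.44 ± 0.18 and 0.30 ± 0.18 (SE).

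Counted over all 10 members, 5 were lower in LTR than in NSC without overlap (Acta2, Tagln, Cnn1, Myl9 and Myh11), 1 was higher without overlap (Srf) and 4 overlapped. Of the 8 members with enough counts for the fit, 4 were lower and 1 higher in this sense; among all 15696 genes tested 32.0% were lower and 26.9% higher without overlap, and 35.9% were called by the edgeR test at an adjusted p under 0.05. Under the NF1 label 6 of 10 were lower without overlap, the same 5 with Tpm2, none was higher and 4 overlapped. Of the 8 with enough counts this was 5, against 23.7% lower, 18.7% higher and 23.1% called among all genes tested. These shares stand beside the members for scale only, since the members were chosen for these levels. The median log2 fold change of the 8 was -4.21 in LTR and -4.92 under the NF1 label, where all genes tested had medians of -0.06 and 0. Without LTR 2 the first of these medians was -5.4, and without NF1 2 or NSC 5 the second was -6.5 or -4.29. Both comparisons use the same NSC libraries.

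Set against each other, the tumour groups were separated by few of these genes. Acta2 was at 0.207 to 2.44 CPM in LTR and at 0 to 0.160 CPM under the NF1 label, and Tpm2 at 1.87 to 13.6 against 1.13 to 1.59 CPM. Both were lower under the NF1 label without overlap, the only 2 of 10 members; among all genes tested 5.24% were lower and 7.22% higher without overlap. Their log2 differences were -4.05 ± 1.5 and -2.20 ± 0.85 (SE). LTR 2 carried much of this, since without it the values were -2.05 and -0.86. Tagln, Cnn2, Myl9, Tpm1 and Srf overlapped between the tumour groups, with log2 differences of -0.73 ± 0.85, -0.79 ± 0.64, -1.59 ± 1.02, 0.42 ± 0.36 and -0.13 ± 0.18 (SE). Cnn1 overlapped too, and its difference of 2.66 ± 1.72 (SE) came to -0.59 without NF1 2 and to 7.09 without LTR 3. Over all genes the edgeR quasi-likelihood test called 0 between the tumour groups at an adjusted p under 0.05 (0% of those tested; smallest adjusted p 0.122), while 1596 had an unadjusted p under 0.05 and DESeq2 called 330.

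Within NSC, culture 3 was low for the contractile genes as a group, with Srf as the exception. Its Acta2 was 19.3% of the mean of NSC 1 and NSC 5. The same share was 18% for Tagln, 8.71% for Cnn1, 15.0% for Cnn2, 15.3% for Myl9, 39.2% for Tpm1 and 17.7% for Tpm2. For Srf it was 109%. Thus 7 of the 8 members with enough counts were at least 2-fold lower in NSC 3, as were 12.1% of all genes tested. The low Acta2 of NSC 3 was known beforehand and singled this culture out, so these shares are a description only. The depth of NSC 3 was the highest of all libraries, and its 9144 reads of Acta2 leave counting error small. Other genes moved with this culture: Col1a1, a collagen chain, was at 486.7, 16.5 and 620.6 CPM in NSC 1, 3 and 5, and Pdgfrb, a mural receptor, at 13.0, 2.67 and 15.0 CPM. In the other direction, the immediate early gene Fos was at 36.1, 337.1 and 25.9 CPM. The part these play in the low contractile levels of NSC 3 was not tested.

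Single tumour cultures also departed from their groups, and were picked out after their values were seen. LTR 2 held 10.9 times the mean Acta2 of LTR 1 and LTR 3, 3.60 times the Tagln, 5.30 times the Myl9 and 5.81 times the Tpm2, but 1.09 times the Srf. At least 2-fold more RNA was found for 4 of 8 members in LTR 2, and for 7.15% of all genes tested. NF1 2 held 4.29 times the Tagln and 5.23 times the Myl9 of NF1 1 and NF1 3, and 26.3 times the Cnn1, while Cnn2 was at 0.431 and Tpm2 at 0.894 times. It exceeded the others at least 2-fold for 4 of 8 members, counted with 0.1 CPM added, and for 20.3% of all genes tested. Even there Acta2 reached only 2.44 CPM in LTR 2 and 0.160 CPM in NF1 2.

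**Figure D2:**
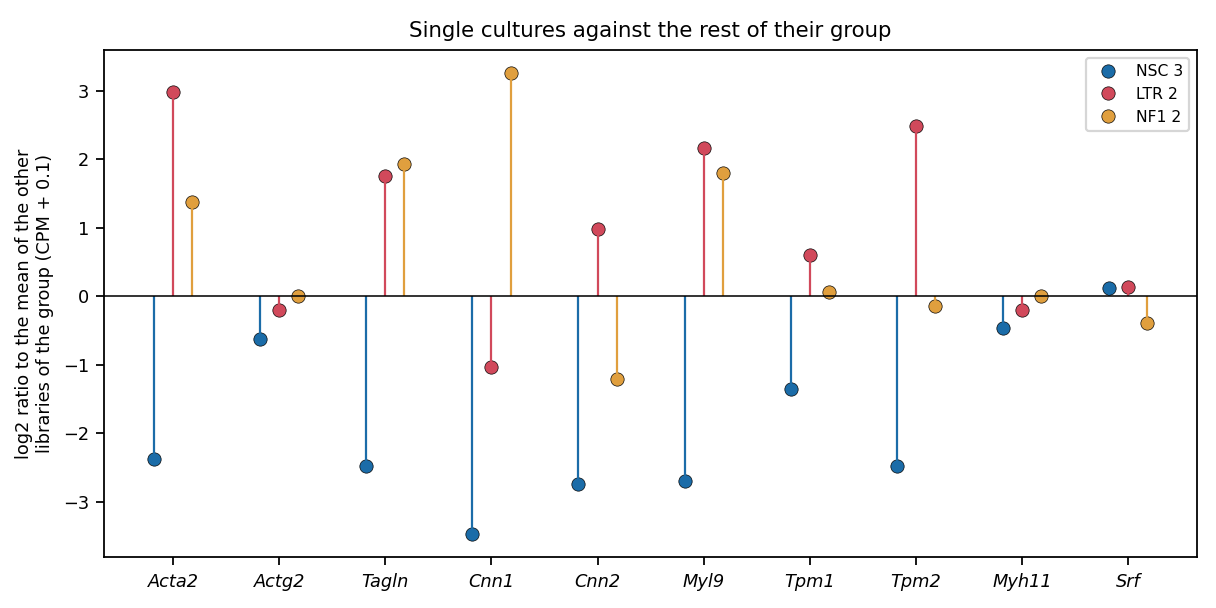
NSC 3, LTR 2 and NF1 2 each against the mean of the other libraries of its group, as a log2 ratio of CPM + 0.1 (y axis) for each contractile gene. NSC 3 is low for 7 members by 1.35 to 3.48 on this scale, LTR 2 is high for Acta2, Tagln, Myl9 and Tpm2, and Srf stays near 0 in all 3.

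Levels of different genes can be set side by side only per length, so CPM were divided by kilobases of exon in the GENCODE M21 annotation. In NSC the order by mean CPM per kb was Acta2 (285 ± 184), Tagln (194 ± 130), Cnn2 (76.4 ± 55.2), Tpm1 (73.7 ± 33.4), Myl9 (71.8 ± 51.0), Srf (16.2 ± 0.956), Tpm2 (8.81 ± 6.28) and Cnn1 (8.38 ± 6.89), each as mean ± SD over 3 libraries, with Actg2 and Myh11 near 0.02. The place of Tagln next to Acta2 depends on how reads in its shared exon bases were counted, which is not known. Neighbours further down, Cnn2, Tpm1 and Myl9, and again Tpm2 and Cnn1, did not differ beyond their spread on this length. The place of Tpm1 depends on the length used. All its exons together hold 6485 bases, but its longest transcript holds 2890, and by that length Tpm1 would stand higher. For Cnn2 both lengths are 2460 bases. In LTR the order opened with Tpm1 (56.3 ± 16.4), Cnn2 (44.3 ± 18.8) and Srf (22.0 ± 1.86), and Acta2 came seventh at 0.438 ± 0.583 CPM per kb. Under the NF1 label Tpm1 (75.6 ± 5.86), Cnn2 (25.5 ± 10.6) and Srf (20.0 ± 3.61) again led, followed by Tagln at 0.613 ± 0.562 CPM per kb. The 3 leading members of both tumour groups are genes known to be expressed outside muscle as well.

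Each contractile gene has close relatives that serve the cytoskeleton of all cells, and the make-up of these families was read per kb of exon. Among 6 actins Acta2 took 17.2%, 3.58% and 18.6% of the actin RNA in NSC 1, 3 and 5, and at most 0.0544% in any tumour library. The cytoplasmic actins took the rest, Actb 70.0% in NSC, 76.1% in LTR and 77.3% under the NF1 label, and Actg1 16.9%, 23.9% and 22.7%. Neither passed the test on its own level: the log2 fold change of Actb was -0.11 ± 0.22 in LTR and -0.28 ± 0.22 (SE) under the NF1 label (edgeR adjusted p = 0.716 and 0.378), and that of Actg1 0.27 ± 0.23 and 0.00 ± 0.23 (adjusted p = 0.366 and 0.999).

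In the transgelins and light chains the members were likewise a larger share in NSC. Tagln was 58.0%, 15.4% and 61.7% of the transgelins in NSC 1, 3 and 5 and at most 1.06% in a tumour library, where Tagln2, the form of non-muscle cells, took 97.3% to 99.4%. Myl9 was 40.3%, 11.0% and 45.8% of the regulatory light chains in NSC and at most 0.641% in a tumour library, where the non-muscle chains Myl12a and Myl12b made up the remainder. In the calponins Cnn3, the form of neural and other non-muscle cells, led in all groups at 80.6%, 82.2% and 87.0%, and Cnn1 never passed 3.03%. Per kb of exon Tpm4 was the most abundant tropomyosin, at 61.5% in NSC, 77.3% in LTR and 70.5% under the NF1 label, with Tpm1 at 20.3%, 10.8% and 15.4%. In NSC this lead depends on the exon length of Tpm1. Before division by length, Tpm1 averaged 478 and Tpm4 482 CPM in NSC. Tpm1 was above Tpm4 in NSC 1 (547.7 against 464.6 CPM) and NSC 5 (651.5 against 550.9 CPM), and below it in NSC 3 (235.2 against 429.3 CPM). Myosin II heavy chain RNA came from Myh9 (50.7%, 66.3% and 66.7%) and Myh10 (41.2%, 33.5% and 32.7%), and Myh11 was 0.0243% of it in NSC. Myh14, another non-muscle heavy chain, made up 8.16% in NSC and 0.17% in LTR, and on its own level it fell in LTR (log2 fold change -5.8 ± 1.08 SE, edgeR adjusted p = 0.00462). Of 13 relatives tested over these families and Myl6, 3 rose and 2 fell in LTR, and none rose and 3 fell under the NF1 label (14.9% and 20.9% of all genes in LTR, 10.1% and 13.1% under the NF1 label). In LTR the rises were Myl12a (1.00 ± 0.32, adjusted p = 0.0383), Myl12b (0.74 ± 0.23, adjusted p = 0.0315) and Tpm4 (0.86 ± 0.24, adjusted p = 0.0233), and under the NF1 label Cnn3 was among the falls (-0.87 ± 0.23, adjusted p = 0.0263). Each of these 4 calls ended without NSC 1 (adjusted p = 0.0832 to 0.108), and some without other libraries.

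**Figure D3:**
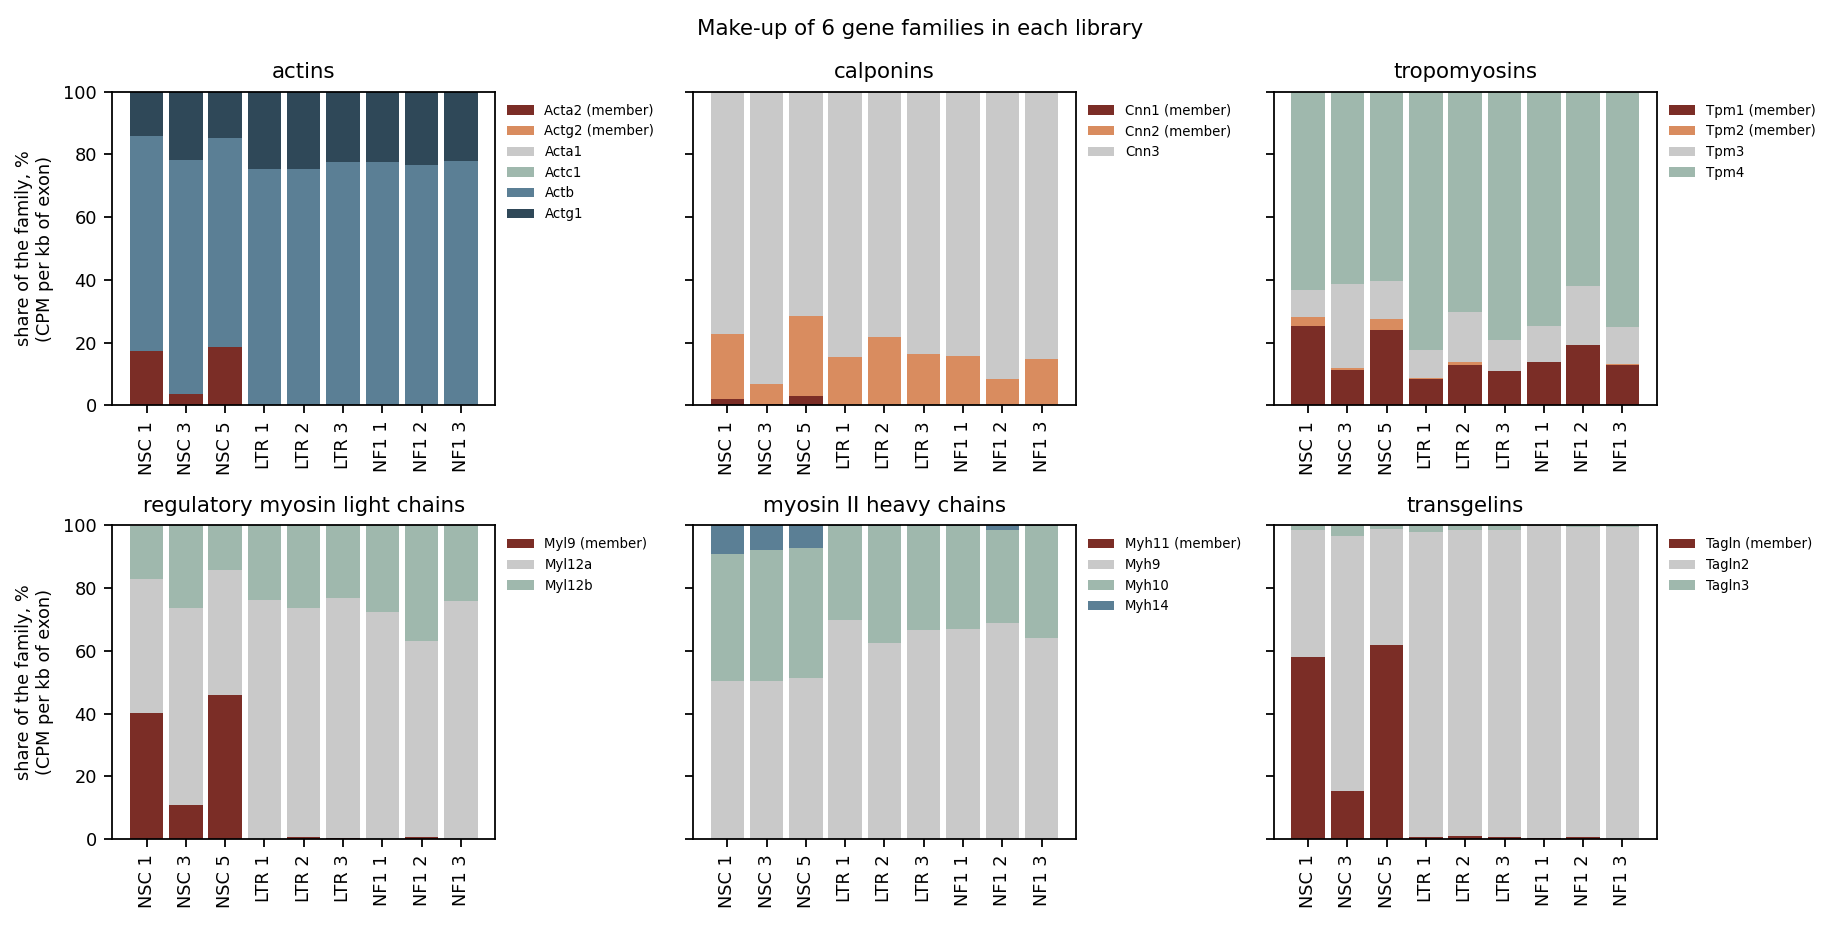
Share of each gene in the RNA of its family (y axis, % of CPM per kb of exon) in each library, for 6 families; members are in red and orange. Acta2, Tagln and Myl9 take visible shares in NSC alone, smaller in NSC 3 (3.58%, 15.4% and 11.0%), while Tpm1 and Cnn2 persist in tumour libraries.

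Other genes of smooth muscle contraction were taken from a list of 25, of which 22 had enough counts to be tested. In LTR 11 fell, 2 rose and 9 did not pass (adjusted p under 0.05, edgeR quasi-likelihood test over all 15696 genes, of which 20.9% fell and 14.9% rose). Their median log2 fold change was -1.14, against -0.06 over all genes. Pdlim3, an alpha-actinin-binding protein of the Z line, was at 1.48 to 2.06 CPM in NSC and at 0, 0.0763 and 0 CPM in LTR 1 to 3, and fell (adjusted p = 0.00402). Synpo2, an actin bundler, fell by 3.43 ± 0.54 (SE) on the log2 scale (adjusted p = 0.00245). Hspb6, a small heat shock protein of muscle, fell by 1.05 ± 0.16 (adjusted p = 0.00237), and it was level in NSC at 60.9, 62.5 and 58.1 CPM. The genes that rose were Filip1l, by 2.08 ± 0.52 (adjusted p = 0.014), and Des, the muscle intermediate filament desmin, at 0.328 to 0.686 CPM, whose call ended without NSC 1, NSC 3 or any 1 of the LTR libraries (adjusted p up to 0.103). The abundant Cald1, the caldesmon that restrains actomyosin, was at 0.45 ± 0.31 (adjusted p = 0.282), and Smtn, smoothelin, at -0.12 ± 0.33 (adjusted p = 0.788).

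Under the NF1 label 9 of the 22 fell, 1 rose (Des, with an adjusted p of up to 0.168 when a library is left out) and 12 did not pass, where 13.1% of all genes fell and 10.1% rose. The median was -0.73, against 0 over all genes. The count of 9 became 5 without NSC 1, NSC 5, LTR 3, NF1 1 or NF1 3, each left out alone. Synpo2 fell by 2.93 ± 0.53 (adjusted p = 0.00587), and Pdlim3, at 0 to 0.0960 CPM, fell as well (adjusted p = 0.00716). Lmod1, a leiomodin that nucleates actin in smooth muscle, fell by 5.67 ± 0.98 (SE, adjusted p = 0.00492), a log2 fold change that was -6.27 without NF1 3. Lmod1 was at 9.55, 1.46 and 11.0 CPM in NSC 1, 3 and 5, low in NSC 3 like the members, and at 0.0290 to 0.239 CPM under the NF1 label. None of the 22 was called between the tumour groups.

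Cytoskeletal genes known as targets of SRF with MRTF were tested for 21 of 23. In LTR 4 rose, 5 fell and 12 did not pass, with a median of 0.12, where 14.9% of all genes rose and 20.9% fell. Under the NF1 label 3 rose, 5 fell and 13 did not pass, with a median of -0.05, where 10.1% of all genes rose and 13.1% fell. The counts are near these shares in LTR, and the named genes are given for their own values. Ctgf, a matricellular protein, was at 105.5, 16.0 and 125.7 CPM in NSC 1, 3 and 5, and its log2 fold change was -3.51 ± 0.81 in LTR (adjusted p = 0.0106) and -4.10 ± 0.83 (SE) under the NF1 label (adjusted p = 0.0092). Its relative Cyr61 fell too, at -2.27 ± 0.46 (adjusted p = 0.00633) and -3.39 ± 0.48 (adjusted p = 0.00236). Fhl1, a LIM protein of muscle, fell less, at -1.52 ± 0.21 (adjusted p = 0.00166) and -1.20 ± 0.21 (adjusted p = 0.00524). Csrp2, a LIM protein of smooth muscle and other mesenchyme, rose from 26.6 to 33.3 CPM in NSC to 157.5 to 226.9 CPM in LTR, by 2.62 ± 0.46 (adjusted p = 0.00367), and by 2.17 ± 0.45 under the NF1 label (adjusted p = 0.01). Fhl2 rose in LTR by 3.38 ± 0.67 (adjusted p = 0.00614), and by 4.12 without NSC 5. The count of 4 that rose in LTR was 2 without NSC 1 or LTR 1. Under the NF1 label the 3 that rose became 1 without NSC 1, NF1 1 or NF1 3, and the 5 that fell became 3 without any of these or NSC 5.

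The MRTF genes Mkl1 and Mkl2, named after their values were seen, did not pass: log2 fold changes were 0.34 ± 0.22 and -0.87 ± 0.33 in LTR (edgeR adjusted p = 0.25 and 0.0671) and 0.40 ± 0.22 and -0.65 ± 0.33 (SE) under the NF1 label (adjusted p = 0.211 and 0.182). Mical2, an enzyme that oxidises actin and releases MRTF, rose by 1.79 ± 0.39 in LTR (adjusted p = 0.0083) and 2.33 ± 0.39 (SE) under the NF1 label (adjusted p = 0.00448). Of the ternary complex factors Elk3 rose by 1.17 ± 0.25 in LTR (adjusted p = 0.0077), and under the NF1 label Elk4 fell by 0.88 ± 0.17 (SE, adjusted p = 0.00826). Both gave calls in the other group that ended when a library was left out: Elk3 rose by 1.12 ± 0.25 under the NF1 label (adjusted p = 0.0131, and 0.0504 to 0.0536 without NSC 1, NF1 1 or NF1 3), and Elk4 fell by 0.83 ± 0.17 in LTR (adjusted p = 0.00747, and 0.0727 without LTR 3). Myocd, the muscle-specific cofactor, was at no more than 0.185 CPM in any library and could not be tested.

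Targets of the ternary complex branch, 9 genes all tested, gave no rise and 2 falls in each tumour group, a share near that of all genes in LTR (20.9% fell; 13.1% under the NF1 label). Fos lay between 25.9 and 337.1 CPM in NSC, between 1.13 and 1.28 CPM in LTR and between 1.19 and 4.22 CPM under the NF1 label. Its log2 fold changes were -6.81 ± 1.12 (adjusted p = 0.00286) and -5.8 ± 1.06 (SE, adjusted p = 0.00607), and without NSC 3 they were -4.58 and -3.64. Without NF1 2 the second was -6.49. Egr1 was at 66.7, 421.8 and 59.0 CPM in NSC 1, 3 and 5. In NSC 3, where the contractile members were low, the summed level of these 9 genes was 1223 CPM, against 369.7 and 368.7 CPM in NSC 1 and NSC 5. The counts in LTR rested on that culture: without NSC 3, 3 of the 9 rose and 1 fell. Under the NF1 label 1 rose without NSC 3, while Fos and Egr1 still passed as falls (edgeR adjusted p = 0.00309 and 0.00703). In LTR the call of Egr1 ended without NSC 3 (adjusted p = 0.0598) and also without LTR 1, LTR 2 or LTR 3 (adjusted p up to 0.0933). Under the NF1 label it ended without NF1 1 or NF1 3 (adjusted p up to 0.0661).

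**Figure D4:**
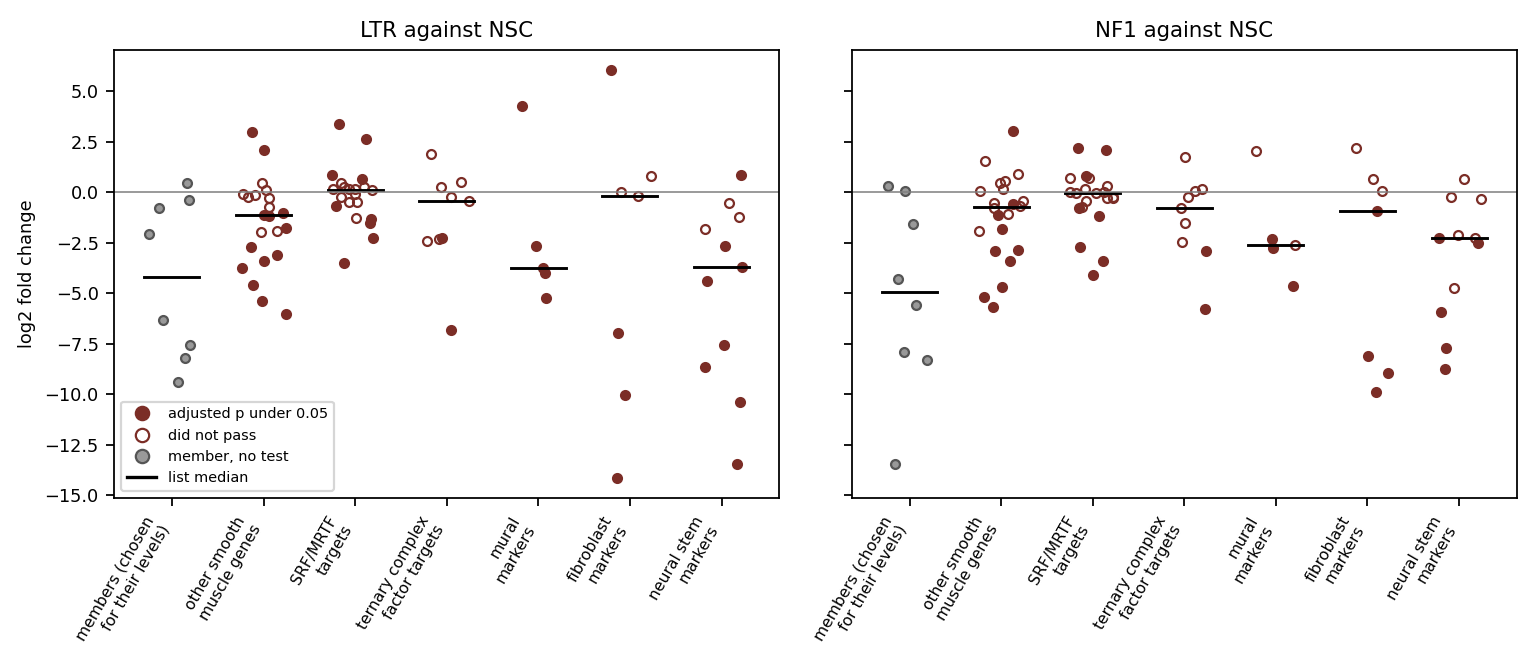
Log2 fold change against NSC (y axis) of each gene with enough counts, by list, in LTR (left) and under the NF1 label (right); filled red points passed an adjusted p under 0.05, open points did not, grey points are the members, which carry no test, and bars are list medians. The other smooth muscle genes spread mostly below 0 (median -1.14 in LTR), SRF and MRTF targets lie on both sides (median 0.12).

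Because Acta2 and Tagln also mark mural cells and activated fibroblasts, the markers of other cells were read beside them. The summed level of 11 mural markers was 150.4, 86.2 and 144.6 CPM in NSC 1, 3 and 5, 6.85 to 10.1 CPM in LTR, and 10.5, 81.8 and 8.53 CPM in NF1 1 to 3. In NSC this sum came mainly from Notch3 (83.5, 44.4 and 67.1 CPM), Cspg4 and Mcam, with Pdgfrb at 13.0, 2.67 and 15.0 CPM. Notch3, Cspg4 and Mcam are also known from neural progenitors, and which cells held this RNA was not tested. The pericyte markers Kcnj8, Abcc9, Vtn and Higd1b were at 0 to 0.106 CPM in every library, and Rgs5 was at 0.216 to 0.509 CPM in NSC. Of 5 mural markers tested 4 fell and 1 rose in LTR (20.9% and 14.9% of all genes), and 3 fell under the NF1 label (13.1% of all genes). Pdgfrb fell in both, at -3.73 ± 0.78 (adjusted p = 0.00737) and -4.65 ± 0.82 (SE, adjusted p = 0.00544), the first being -4.48 without LTR 2. The 1 that rose in LTR, Anpep, stood at 0.296 to 0.534 CPM, and the call ended without NSC 5. Without NF1 1 or NF1 3, 1 mural marker rose under the NF1 label.

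The 11 fibroblast markers summed to 946.4, 350.7 and 1230 CPM in NSC 1, 3 and 5, to 192.4 to 350.8 CPM in LTR and to 238.2 to 257.9 CPM under the NF1 label. Col1a1 and Col1a2 followed the contractile members, low in NSC 3 (Col1a2 at 257.5, 23.9 and 396.9 CPM) and lower still in tumour cells. The log2 fold change of Col1a1 was -6.98 ± 1.16 in LTR (adjusted p = 0.00294) and -8.10 ± 1.22 (SE) under the NF1 label (adjusted p = 0.0029), and that of Col1a2 -10.05 ± 1.15 (adjusted p = 0.000939) and -8.97 ± 1.09 (adjusted p = 0.00146), which were -9.37 and -8.29 without NSC 5. Other markers of the list did not share this pattern. Thy1 fell in both tumour groups but was not low in NSC 3, at 49.3, 72.6 and 68.7 CPM in NSC 1, 3 and 5. Prrx1 did not pass, at 0.00 in LTR and 0.64 under the NF1 label (adjusted p = 0.997 and 0.117). Twist1 did not pass in LTR, at -0.18 (adjusted p = 0.49), and was at -0.92 under the NF1 label (adjusted p = 0.0107). Lum, Dcn and Fap were at 0 to 0.106 CPM in every library, and Postn at 0 to 0.777 CPM. Of 7 tested markers 3 fell and 1 rose in LTR, beside the same shares of all genes, and 4 fell under the NF1 label, where 1 rose without NSC 3. Neural stem markers moved as well: 7 of 11 fell and 1 rose in LTR, where 20.9% of all genes fell and 14.9% rose, and 5 fell under the NF1 label, where 13.1% of all genes did. The 5 became 9 without NF1 2. The 1 that rose in LTR, Pax6, lost its call without NF1 1 or any single NSC or LTR library. The part of other cell types in the contractile levels was not tested.

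Genes with the pattern most like the members were sought among 13030 tested genes with a mean of at least 1 CPM, by the root mean square difference of log2 CPM centred over the 9 libraries. The 5 nearest to Acta2 were Epb41l3 (1.59), Grb10 (1.73), Tagln (1.77), Thy1 (1.91) and Sparcl1 (1.94). The 5 nearest to Tagln were Myl9 (0.54), Epb41l3 (0.57), Osmr (0.73), 1500015O10Rik (0.77) and Sybu (0.78). Myl9, itself chosen for its levels, was nearest to Tagln with Epb41l3 close behind. Epb41l3 and Grb10, which are not members, were nearer to Acta2 than any member was. Epb41l3, a membrane skeleton protein, was at 118.4, 18.1 and 145.9 CPM in NSC 1, 3 and 5, with the low value in NSC 3 that the contractile genes show, and at no more than 0.608 CPM in the tumour libraries. Thy1 and Sparcl1, in contrast, were not low in NSC 3, at 72.6 and 162.5 CPM. Likeness is a description over 9 libraries of 3 groups, in which the step between NSC and tumour cells is the widest difference.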

How the data were processed

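RNA of 9 cultures was sequenced after NEBNext Ultra library preparation (labels' protocols). The authors deposited unnormalized read counts for each gene, and the submitters' processing notes list the builds GRCm38 and mm10 and the tools STAR 2.5.2a, DESeq2 1.8.2 and HTSeq. The sources used here do not say how reads were counted, with which strand setting or with which annotation.

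The analysis ran edgeR 4.0.16 under R 4.3.3 (TMM scaling, filterByExpr with a minimum count of 10, leaving 15696 genes). All 9 libraries entered a single model with group as its term, with the quasi-likelihood F test and Benjamini-Hochberg adjustment over all genes. The SE of a log2 fold change comes from its F statistic, and fitted values carry a prior count of 0.125. The fit was tested on simulated data, where it missed most 2-fold changes, so a gene that did not pass may still differ. Exon lengths and coordinates are from GENCODE M21 (GRCm38), which held 47224 of the 47729 gene identifiers.

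The members and lists were chosen with earlier results of these data known. Genes named were all members, up to 4 per list, direction and comparison by smallest adjusted p, 2 abundant ones that did not pass, the members' families, and the 5 genes most like Acta2 or Tagln. Pcsk7, Mkl1, Mkl2, Myocd, Rgs5 and other untested markers were named after their values were seen. Some results are not reported here. Alternatives were DESeq2 1.42.0, other scalings, no filter, fits of 6 libraries, a replicate block and each library left out.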

Additional observations from a re-analysis of the deposited data

How the results depend on the processing

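Genes called in LTR against NSC numbered 5634, 3477 with the replicate block, 8018 without both NSC 3 and NF1 2, and 3281 to 7640 with 1 library left out. Under the NF1 label it was 3631, 1942 with the block, 7485 without both NSC 3 and NF1 2, and 1752 to 6900 with 1 library left out. Between tumour groups it was 0, but 330 by DESeq2, 52 with no filter, 104 without both NSC 3 and NF1 2, and 0 to 34 with 1 library left out. Over the 4 pathway lists, 28 genes were called in LTR and 43 without NSC 3 and NF1 2 (21 to 36 with 1 left out); under the NF1 label 24 were called, 15 with only the 6 libraries compared, 15 with the block, and 13 to 33 with 1 left out. The members' median under the NF1 label was -4.92, and -6.96 without both NSC 3 and NF1 2. In raw counts in place of counts per kb, Tpm1 was 35.6% of tropomyosins in NSC, 22.3% in LTR and 29.1% under the NF1 label, and Myh11 0.0162% of myosin II heavy chains in NSC. These raw shares differ from those per kb only in that no exon length was divided out. The cause of the shifts between fits was not tested, other than that fewer libraries or genes enter some fits. No called result reversed among those run; uncalled Tpm1 under the NF1 label ranged from -0.26 to 0.32.

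Replicate numbers did not pair the cultures: deviations of same-numbered libraries correlated at -0.18 to 0.12. Beside the counts above, the block moved the log2 fold change of Cnn2 from -0.79 to 0.00 in LTR. Other smooth muscle genes called lower under the NF1 label went from 9 to 5 with the block. Depth limits Actg2, Myh11 and Myocd, and Acta2 under the NF1 label, where 5 reads remain.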

Other observations

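Markers of striated muscle, which share actin and tropomyosin genes with smooth muscle, were read beside the members, and their summed level was 2.96 to 5.74 CPM in NSC, 6.25 to 9.95 CPM in LTR and 4.46 to 5.63 CPM under the NF1 label. Tnnt2, the cardiac troponin T, was at 0.0793 to 0.241 CPM in NSC and rose by 3.89 ± 0.62 (SE) on the log2 scale in LTR (edgeR adjusted p = 0.00252) and by 2.86 ± 0.60 under the NF1 label (adjusted p = 0.0107). Of 6 such genes tested 2 rose in LTR (1 without NSC 1, NSC 3, NSC 5 or LTR 2) and 1 under the NF1 label (2 without LTR 2), where 14.9% and 10.1% of all genes rose, and 3 of the list of 16 were at 0 in every library.

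Rgs5, a pericyte marker picked out after its values were seen, was at 38.4 CPM in NF1 2 and at 0.0296 to 0.509 CPM in the other 8 libraries. Notch3 was at 28.9 CPM in NF1 2, against 2.35 and 1.16 CPM in NF1 1 and NF1 3. Acta2 in the same library was at 0.160 CPM.

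Col3a1, a fibrillar collagen, went against Col1a1 and Col1a2. It was at 0.180 to 1.75 CPM in NSC and at 152.1, 30.4 and 16.4 CPM in LTR 1 to 3, a rise of 6.03 ± 1.20 (SE) on the log2 scale (adjusted p = 0.00609), which was 4.53 without LTR 1 and 6.67 without NSC 1.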
